A study of Homo sapiens with 24 samples.

Results

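Ribosome biogenesis was followed through 42 genes whose products build ribosomes in the nucleolus, in HBL-1 cells given dimethyl fumarate (DMF) or its solvent. The genes were listed by symbol, with no measured value in the rule but with earlier results of these data known, and all 42 of 42 symbols were found among the 21831 genes of each table. They fall into 7 roles: 3 proteins of the box C/D snoRNPs, 4 of the box H/ACA snoRNPs, 4 nucleolar scaffolds and chaperones, 8 components of the small subunit processome, 5 factors of late 40S assembly, 11 factors of 60S assembly, and 7 subunits or factors of RNA polymerase I. HBL-1 is a human cell line of the activated B-cell-like type of diffuse large B-cell lymphoma. Control cultures received DMSO, the solvent of DMF, and DMF cultures received 20 µM DMF in DMSO, so all groups shared the solvent. Cells were collected at 6, 12, 24 or 48 h, which gave 8 groups of 3 libraries and 24 libraries in all, each from the total RNA of bulk cultures. HBL-1 was the only line studied, and the labels do not say whether replicates came from separate cultures, so p-values measure only the spread between these libraries. In bulk RNA, fewer cells of a kind and less RNA per cell cannot be told apart, and every level below is a share of its library.

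RNA polymerase I transcribes the ribosomal DNA repeats into a long precursor, the 45S RNA, inside the nucleolus. Small nucleolar ribonucleoproteins (snoRNPs) modify this precursor, the small subunit processome folds and cleaves it, and separate sets of assembly factors then mature the 40S and 60S subunits. Growing cells spend much of their transcription on this pathway, and MYC, a transcription factor often active in B-cell lymphomas, is known to raise the expression of many of its genes.

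Both 12 h libraries of replicate 3, the control and the DMF library, stood apart from the other 22 libraries. Their reads lay on shorter transcripts, with a mean effective length of 1902 bases in control and 2121 bases in DMF against 2850.4 to 3157 bases in the others. Transcripts of 86 cytosolic ribosomal protein genes held 26.37% and 20.77% of their counts against 8.751% to 13.95% elsewhere. Against the mean of replicates 1 and 2, the 42 genes deviated in replicate 3 by log2 values from -2.42 to 2.28 in control and from -1.8 to 1.57 in DMF, by more than 1 for 20 and 12 genes. These deviations fell with transcript length, with Spearman coefficients of -0.73 in control and -0.78 in DMF across the 42 genes, which share their libraries and are not independent. The library of DMF replicate 1 at 48 h held 2870751 counts, and the others held 23097873 to 40906596. All 6 B-cell markers were expressed, with summed levels of 3640.85 to 6393.58 TPM (library share per transcript length), as were 4 of 4 markers of activated B-cell-like lymphoma. None of 4 T-cell markers reached 1 TPM in any library, and their sum was 0.0 to 0.72 TPM. In at least 1 library 1 TPM was reached by 1 of 4 myeloid markers (CD68, up to 10.01 TPM), 3 of 4 epithelial markers (summed 2.23 to 6.82 TPM), 1 of 4 fibroblast markers (summed 0.05 to 1.86 TPM) and 1 of 3 endothelial markers (PECAM1, up to 20.82 TPM).

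**Figure D1:**
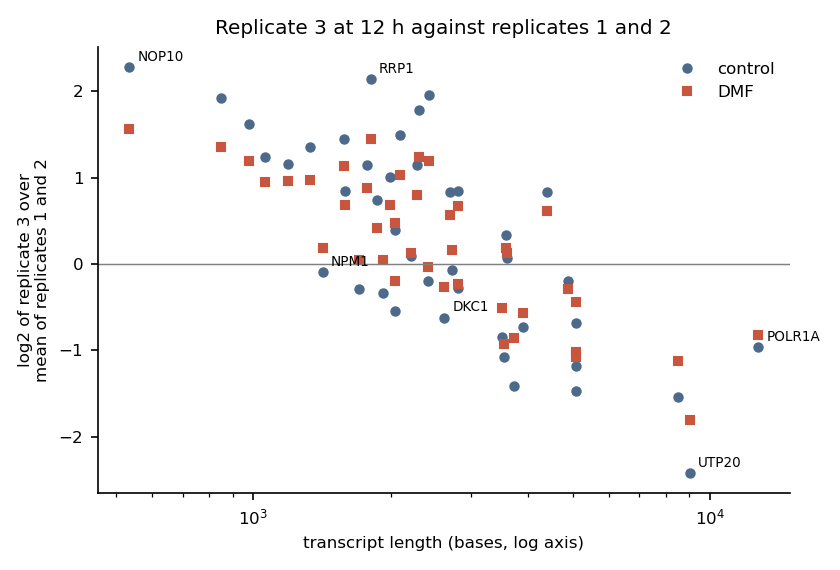
Deviation of each of the 42 genes in replicate 3 from the mean of replicates 1 and 2 at 12 h (log2 scale, vertical axis) against transcript length in bases (horizontal axis), for control and DMF. Long transcripts such as UTP20 lie lowest and short ones such as NOP10 highest, over a range of -2.42 to 2.28 in control.

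Differences were tested with edgeR's quasi-likelihood F-test on all 24 libraries, with Benjamini-Hochberg adjustment over the 13410 features tested, and features with an adjusted p under 0.05 were called. All 42 genes passed the filter on low counts. The 12 h replicate 3 libraries enter the spread shared by all groups. Each count of called genes over all 42 is therefore also given from 22 libraries refitted without them. Counts by role and of other pathway genes are from 24 libraries unless stated. The common dispersion, edgeR's measure of the spread between replicates, was 0.052 in 24 libraries and 0.00209 in 22. Fold changes are on the log2 scale as fitted value ± SE, and levels are CPM, counts scaled to library size by TMM, unless TPM is stated. Small differences can have opposite directions in CPM and TPM, and directions of tested differences are those in CPM.

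The promoters were examined first for sequence that the genes share. Of the 42 genes, 35 matched a RefSeq promoter of build GRCh38.p14, taken from 250 bases before to 50 bases from the transcription start. The E-box CACGTG, the core letters bound by MYC with its partner MAX, was present in 13 of these 35 promoters (37.1%). It was present in 29% of 100 promoters of other ribosome biogenesis genes, in 10.3% of 10152 promoters of the genes tested, and in 7.26% of all 35116 promoters. Of 14 such sites, 13 lay within 50 bases of the start. The 7 windows of 30 bases shown here belong to genes of 4 roles whose levels are followed below, with the E-box in capitals. Each reads 5′ to 3′ along the strand of its gene, and NOP10 has 2 sites.
UTP4, chr16:69132621-69132650, plus strand: agagcgcgcgcgCACGTGgggccggggcgg
LTV1, chr6:143843354-143843383, plus strand: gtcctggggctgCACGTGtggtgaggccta
NOP14, chr4:2963374-2963403, minus strand: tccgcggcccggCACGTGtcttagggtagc
UTP20, chr12:101280083-101280112, plus strand: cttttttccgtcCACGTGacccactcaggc
FBL, chr19:39846356-39846385, minus strand: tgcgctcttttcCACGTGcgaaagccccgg
NOP10 (far), chr15:34343289-34343318, minus strand: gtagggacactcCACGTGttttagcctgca
NOP10, chr15:34343130-34343159, minus strand: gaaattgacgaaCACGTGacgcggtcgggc
In UTP4 and UTP20 the first base of the E-box lay 16 and 10 bases before the start. In LTV1, NOP14 and FBL it lay 29, 16 and 7 bases past it. The sites of NOP10 lay 11 and 170 bases before its start. In all 6 genes shown the first base of an E-box was within 30 bases of the start. Windows were shown only where 12 bases on each side lay inside the promoter. The E-box of NOP2, 36 bases past its start, was left out by this rule, so the closeness past the start is partly set by it.

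Other motifs were searched on both strands in the same windows. CACGCG, an E-box variant, was present in 37.1% of the member promoters and 18.2% of those of the genes tested. CCGGAAG, the core letters of ETS factors, was present in 40% and 19.5%. TGACGTCA, the cyclic AMP response element, was in 1 of 35 member promoters (2.86%) and in 3.21% of those of the genes tested. The AP-1 letters TGACTCA were in 0 of 35 windows and in 2.93% of those of the genes tested. No E-box site overlapped a match to another motif. Median GC content was 64.3% in the member promoters and 65.0% in those of the genes tested. These shares are descriptions of letters in a window.

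Per transcript length, the genes spanned a wide range in control cells at 6 h. The nucleolar chaperone NPM1 was highest at 3822 ± 56.1 TPM (mean ± SD, n = 3), followed by the nucleolar RNA-binding protein NCL at 1672 ± 82.5 TPM. The ribosomal RNA methyltransferase FBL was at 602 ± 4.67 TPM and its box C/D partner NOP56 at 523 ± 5.53 TPM. The pseudouridine synthase DKC1 was at 417 ± 4.21 TPM. The lowest 3 were HEATR1, a processome component, at 35.7 ± 1.2 TPM, the largest subunit of RNA polymerase I, POLR1A, at 29.7 ± 0.974 TPM, and the processome component UTP15 at 23.1 ± 0.644 TPM. POLR1C at 436 ± 12 TPM stood between NOP56 and DKC1, and no neighbours among these 6 overlapped within ± 1 SD, nor did the lowest 3. In the middle of the order many genes were within the spread of the next, such as NOP58 at 224 ± 13.2 and NOP10 at 238 ± 23.3 TPM. NPM1 and RRN3 have near-identical pseudogene copies, and how reads were split between copies was not given in the sources used here.

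The product of the pathway was measured as counts on ribosomal RNA genes. Their summed share was 1.09%, 1.0% and 1.07% of all counts in the 3 control libraries at 6 h and 1.72%, 1.74% and 1.89% in the DMF libraries. At 24 h the shares were 0.682%, 0.672% and 0.645% in control and 0.915%, 0.919% and 0.916% in DMF. At 48 h they were 0.773%, 0.793% and 0.728% against 1.29%, 1.31% and 1.45%. Every DMF library lay above every control library at these 3 times. At 12 h replicates 1 and 2 gave 0.72% and 0.725% in control and 1.15% and 1.23% in DMF, whereas the replicate 3 libraries stood at 2.46% and 2.16% and the groups overlapped. An exact two-sided permutation test of the share gave p = 0.1 at 6, 24 and 48 h, the smallest that 3 against 3 libraries allow, and p = 0.6 at 12 h (0.133 and 0.6 after adjustment over the 4 times). The difference of the means was 0.73 percentage points at 6 h, 0.211 at 12 h, 0.25 at 24 h and 0.583 at 48 h. How the libraries treated ribosomal RNA, by selection or depletion, was not given in the sources used here.

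Of the 45S, 28S and 18S entries, the 45S precursor differed most. Its share was 0.104%, 0.107% and 0.102% of counts in control at 6 h and 0.283%, 0.286% and 0.267% in DMF. At 48 h it was 0.0206%, 0.0264% and 0.0241% in control and 0.146%, 0.134% and 0.144% in DMF, without overlap. In edgeR's test the 45S entry rose with DMF at every time, by 1.53 ± 0.36 at 6 h (adjusted p = 0.0085), 1.41 ± 0.36 at 12 h (adjusted p = 0.01), 1.68 ± 0.37 at 24 h (adjusted p = 0.0037) and 2.46 ± 0.38 at 48 h (adjusted p = 6.3e-05). These calls were lost without control replicate 3 at 6 h (adjusted p = 0.051) and, at 12 h, without control replicate 1 (log2 0.99, adjusted p = 0.052) or control replicate 2 (1.05, adjusted p = 0.066), and the 12 h value was 2.41 in 22 libraries. The ratio of mean shares was 2.67 at 6 h, 3.06 at 12 h, 3.27 at 24 h and 5.96 at 48 h. The effect at 48 h minus that at 6 h was 0.93 ± 0.50 (adjusted p = 0.29, and 2.0e-08 in 22 libraries).

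Mature sequences moved less. The 28S entry differed by 0.84, 0.03, 0.43 and 0.62 at 6, 12, 24 and 48 h and was not called in 24 libraries (adjusted p = 0.36, 0.98, 0.66 and 0.4). In 22 libraries it was called at every time, with 0.84, 0.77, 0.43 and 0.63. The 18S entry differed by 0.32, -0.48, 0.03 and 0.37 and was called only at 48 h in 22 libraries (0.38, adjusted p = 0.025). As a part of all ribosomal RNA counts, 45S made up 9.57%, 10.6% and 9.57% in control and 16.5%, 16.5% and 14.1% in DMF at 6 h. By 48 h it made up 2.67%, 3.33% and 3.31% in control and 11.3%, 10.3% and 9.95% in DMF. DMF libraries were above control libraries at both times, and this part of the total was computed after the other values were seen. The 45S entry contains the 18S and 28S sequences, so the split between them is RSEM's estimate.

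**Figure D2:**
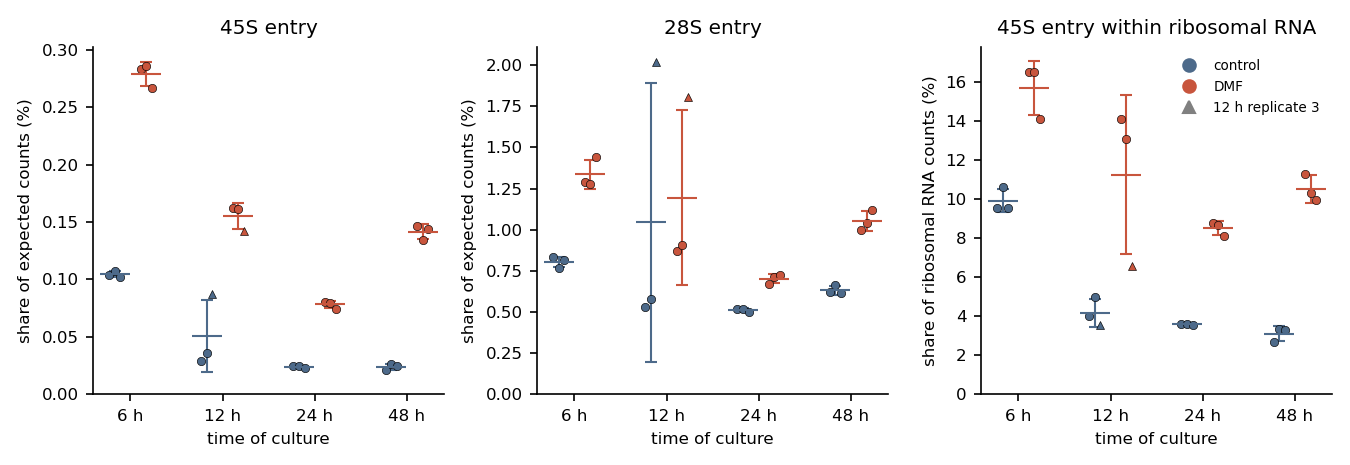
Share of library counts on the 45S and 28S entries in percent (vertical axes), by time in hours (horizontal axis). The last panel gives 45S as a percent of all ribosomal RNA counts. Points are libraries, triangles the 12 h replicate 3 libraries, and bars mean ± SD of 3. DMF lies above control for the 28S share at 6, 24 and 48 h, and for the 45S share at all 4 times. The mean DMF share of 45S is 0.279% at 6 h, 0.155% at 12 h, 0.0782% at 24 h and 0.141% at 48 h.

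The number of the 42 genes called with DMF in 24 libraries was 0 at 6 h, where 5.05% of features were called higher and 5.59% lower. It was 1 higher at 12 h (7.35% and 9.96% of features) and 5 lower at 24 h (7.79% and 6.61%). At 48 h it was 6 higher and 5 lower (13.3% and 12.5%). More genes and more features were called in 22 libraries, as given below for each time. The median difference over the 42 was 0.06, -0.01, -0.23 and 0.12 on the log2 scale, against 0, -0.05, 0.01 and 0.02 over all features tested.

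At 6 h edgeR called 0 genes in 24 libraries, where 5.05% of features were called higher and 5.59% lower. At an unadjusted p under 0.05 there was 1 gene, lower, and DESeq2 called 0. Differences ran from -0.29 for BOP1, a 60S assembly factor, to 0.32 for POLR1C, a subunit shared by RNA polymerases I and III. The next highest were NOP16 at 0.29 and RRP9, a U3 snoRNA-binding protein, at 0.23, then DKC1 at 0.20, RRN3 at 0.16 and NCL at 0.16, close to BYSL at 0.16 and NOP58 at 0.16. The next lowest were RRS1 at -0.19, LTV1 at -0.12, NOP56 at -0.10, TAF1D at -0.10 and UTP20 at -0.09. GAR1 stood at 0.14, FBL at 0.12, NOLC1 at 0.13 and UTP4 at -0.06. In 22 libraries 13 genes were called higher and 2 lower, where 23.8% and 23.4% of features were called. In CPM the DMF libraries lay wholly above the controls for 20 genes and wholly below for 7, against 30.3% and 29.6% of features. Some of these directions depended on the scaling. RRP12, NOP2 and WDR12, wholly above in CPM, lay wholly below in TPM, with RRP12 at 87.3 to 91.4 in DMF and 96 to 97.7 in control. POLR1C, NOP16 and RRP9 lay wholly above in both.

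At 12 h DKC1 was the 1 gene called, where 7.35% of features were called higher and 9.96% lower. Its level was 484 and 514 CPM in control replicates 1 and 2 and 608 and 614 CPM in DMF replicates 1 and 2, with replicate 3 at 325 CPM in control and 511 CPM in DMF. Within each replicate number DMF was the higher library, but DMF replicate 3 lay just below control replicate 2, so the groups overlapped. The difference was 0.39 ± 0.12, adjusted p = 0.03, and the call was lost in 2 of 24 refits that left out 1 library, those without control replicate 3 or DMF replicate 1 of 12 h. With the replicate number as a block, DKC1 and NCL were called (adjusted p = 0.016 and 0.044), and without control replicate 3 of 12 h 9 genes were called higher. Refits without 1 library called 1712 to 4342 of all features at 12 h. The highest values after DKC1 were POLR1C at 0.31, RRN3 at 0.26, NCL at 0.23, GNL3 at 0.20 and UTP15 at 0.20. The lowest were BOP1 at -0.65, NOP10 at -0.27, NHP2 at -0.22, NOP56 at -0.18, FBL at -0.17 and MRTO4 at -0.16. Without both replicate 3 libraries NOP10 was at 0.20, NHP2 at 0.12, NOP56 at 0.08, FBL at 0.07 and MRTO4 at 0.01, so the direction of these 5 rests on those libraries. WDR12, LTV1, RRP12 and WDR75 were at -0.08, 0.11, -0.11 and 0.11 at 12 h, and without both replicate 3 libraries at -0.13, -0.01, -0.01 and 0.10. In 22 libraries 11 genes were called higher and 2 lower, where 24.1% and 23.8% of features were called, and the median was 0.06. The groups of 3 overlapped for 41 genes, with 1 wholly higher in DMF and 0 wholly lower, against 7.85% and 8.84% of features.

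At 24 h 5 of 42 genes fell and 0 rose, where 6.61% of features were called lower and 7.79% higher. The genes called were TSR1 and LTV1 of late 40S assembly, the ribosomal DNA-binding factor UBTF, NPM1, and the processome component NOP14. In 22 libraries 29 fell and 2 rose, where 27.9% and 29.5% of features were called. These 2 were the box H/ACA proteins NOP10 (0.48, adjusted p = 3.3e-06) and NHP2 (0.15, adjusted p = 0.011). The DMF libraries lay wholly below the controls for 30 genes and wholly above for 3, against 31.8% and 32.1% of features. The count of 5 moved to 15 without control replicate 3 of 12 h, to 8 without DMF replicate 3 of 12 h, to 3 without control replicate 1 or 2 of 24 h, and to 1 without control replicate 3 or DMF replicate 2 or 3 of 24 h, and DESeq2 called 9. All features called at 24 h also ranged from 1282 to 3577 over the refits without 1 library.

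At 48 h 6 of 42 genes were higher and 5 lower, near the background of 13.3% and 12.5% of features called. In 22 libraries 21 rose and 12 fell, where 33.6% and 30.9% of features were called. The DMF libraries lay wholly above the controls for 17 genes and wholly below for 9, against 30.6% and 30.2% of features. The count of 6 was 2 without control replicate 3 of 48 h, and the count of 5 was 3 without control replicate 2 of 48 h. At this time the ribosomal protein share also differed, at 12.5%, 13.9% and 12.4% in control and 8.99%, 8.75% and 8.97% in DMF, and so did mean effective length, at 2850.4 to 3054 bases in control and 3091 to 3157 bases in DMF. Their part in the results at 48 h was not tested.

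**Figure D3:**
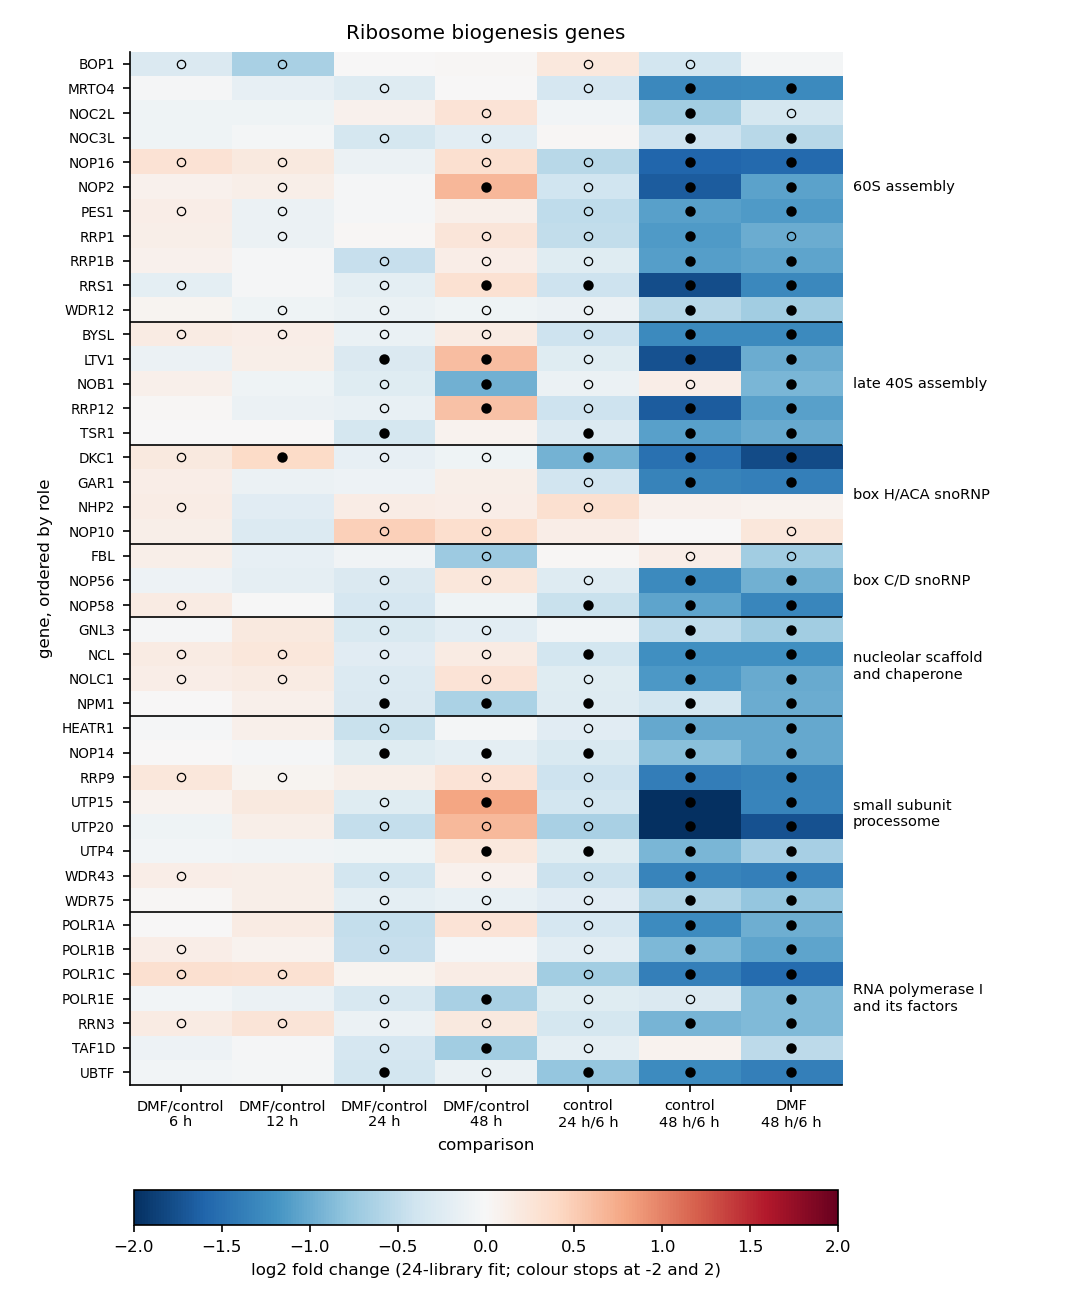
Log2 difference between DMF and control for each of the 42 genes, by role, at 6, 12, 24 and 48 h. A filled dot marks a gene called in 24 libraries and an open dot one called only in 22. At 24 h 35 of 42 values are below 0 (median -0.23), with 5 called lower, and values of both signs stand at 48 h, from -0.96 for NOB1 to 0.79 for UTP15.

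The box C/D proteins belong to particles that methylate ribosomal RNA. None of the 3 was called with DMF at any time in 24 libraries. NOP58, a core protein of the particle (chr2:202265716-202303666 in GRCh38.p12), was at 182, 186 and 179.6 CPM in control and 149, 141 and 147 CPM in DMF at 24 h. The DMF libraries were the lower ones, and the difference was -0.33 ± 0.12, adjusted p = 0.09 (7.8e-06 in 22 libraries). NOP56 was at -0.29 at 24 h. At 48 h NOP58 differed by -0.08, NOP56 by 0.22 and FBL by -0.72. FBL, the methyltransferase itself, was at 268, 339 and 268 CPM in control and 169, 185 and 178 CPM in DMF at 48 h. The groups were far apart, but the difference was not called in 24 libraries (-0.72 ± 0.34, adjusted p = 0.14, 95% interval -1.43 to -0.01), whereas in 22 libraries it was -0.70 (adjusted p = 2.7e-10).

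The box H/ACA proteins belong to particles that carry out pseudouridylation. DKC1, the catalytic subunit (chrX:154762742-154777689 in GRCh38.p12), was at 608, 621 and 599.8 CPM in control and 687, 709 and 700.2 CPM in DMF at 6 h. At 48 h it was at 214, 224 and 207 CPM and 209, 206 and 192 CPM. Its differences were 0.20, 0.39, -0.17 and -0.09 at 6, 12, 24 and 48 h, called at 12 h only. In TPM its 48 h libraries went the other way, at 140.4, 133 and 138 in control and 155, 158 and 144 in DMF. NOP10 differed by 0.47 and 0.33 at 24 and 48 h with adjusted p of 0.6 and 0.67, and NHP2 by 0.15 and 0.13. GAR1 stayed between -0.12 and 0.14.

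Among the 4 scaffolds and chaperones NPM1 was the 1 gene called with DMF at a single time in 24 libraries. NPM1 (chr5:171387116-171411137 in GRCh38.p12), a histone and ribosome chaperone of the granular nucleolus, was at 2318, 2271 and 2308 CPM in control and 1969, 1808 and 1881 CPM in DMF at 24 h. At 48 h it was at 2106, 2275 and 2039 CPM and 1369.6, 1387 and 1401 CPM. All DMF libraries were below all control libraries at both times, and NPM1 fell by 0.29 at 24 h (adjusted p = 0.017) and 0.63 at 48 h (adjusted p = 6.7e-06) on the log2 scale. The 48 h call was kept in 24 of 24 refits that left out 1 library, and the 24 h call in 19. At 6 and 12 h NPM1 differed by 0.01 and 0.10. The other scaffolds were not called at any 1 time, although NCL was called in the joint test of change over the 4 times (adjusted p = 0.032). At 24 and 48 h NCL differed by -0.23 and 0.16, the snoRNP assembly factor NOLC1 by -0.27 and 0.28, and the GTPase GNL3 by -0.31 and -0.21. In 22 libraries all 4 fell at 24 h. In TPM the 48 h groups of GNL3 overlapped, with means of 161 in control and 164 in DMF.

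Among 8 components of the small subunit processome, the large particle that assembles on the precursor with U3 snoRNA, 2 rose and 1 fell at 48 h, and 1 fell at 24 h. Over all features 13.3% were called higher and 12.5% lower at 48 h and 6.61% lower at 24 h, and no count by role is set apart from these shares by a test. UTP15 (chr5:73565443-73583377 in GRCh38.p12), of the UTPA module that binds the precursor early, was at 69.5, 68.8 and 71.3 CPM in control and 76.1, 76.2 and 68.4 CPM in DMF at 6 h. At 48 h it was at 18.6, 16.9 and 15.8 CPM in control and 33.4, 29.5 and 26.4 CPM in DMF. The groups overlap at 6 h and are apart at 48 h, where UTP15 rose by 0.79 ± 0.15, adjusted p = 0.0007, a call kept in 24 of 24 refits. UTP4, of the same module, rose by 0.21 ± 0.07, adjusted p = 0.043, but kept its call in only 5 of 24 refits. NOP14 fell at 24 h (-0.24 ± 0.07, adjusted p = 0.017) and at 48 h (-0.19 ± 0.07, adjusted p = 0.037), with the 48 h call kept in 6 of 24 refits. In TPM its 48 h groups overlapped, at 61, 55.8 and 59.1 in control and 62.6, 59.7 and 56.7 in DMF. UTP20 (chr12:101280109-101386616 in GRCh38.p12), a large scaffold of the particle, was at 42.9, 34.8 and 36.6 CPM in control and 58.3, 63.2 and 57.6 CPM in DMF at 48 h. The DMF libraries were higher, yet the difference was not called in 24 libraries (0.65 ± 0.43, adjusted p = 0.31), only in 22 (0.67, adjusted p = 8.2e-09). At 24 h UTP20 was at -0.47. WDR43, WDR75, HEATR1 and RRP9 differed by -0.36, -0.20, -0.45 and 0.12 at 24 h and by 0.08, -0.15, -0.04 and 0.28 at 48 h, none called.

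Of 5 factors of late 40S assembly 2 rose and 1 fell at 48 h, and 2 fell at 24 h, where the shares of features called were those just given. LTV1 (chr6:143843344-143863812 in GRCh38.p12), which accompanies the pre-40S particle out of the nucleus, was at 80.3, 79.2 and 80.6 CPM in control and 68.1, 65.9 and 62.9 CPM in DMF at 24 h. At 48 h it was at 28.4, 30.9 and 25.3 CPM in control and 41.9, 44.2 and 43.6 CPM in DMF. DMF libraries lay below the controls at 24 h and above them at 48 h. LTV1 fell by 0.29 at 24 h (adjusted p = 0.038, kept in 16 of 24 refits) and rose by 0.62 ± 0.09 at 48 h (adjusted p = 4.5e-05, kept in 24). NOB1 (chr16:69741867-69754940 in GRCh38.p12), the endonuclease that makes the 3′ end of 18S RNA, was at 133, 156 and 137 CPM in control and 72.9, 73.6 and 72 CPM in DMF at 48 h. The groups did not overlap, and NOB1 fell by 0.96 on the log2 scale (adjusted p = 0.006, kept in 24 refits). RRP12, an export factor of both subunits, rose at 48 h by 0.59 ± 0.18, adjusted p = 0.019, kept in 9 of 24 refits. TSR1, a GTPase-like factor, fell at 24 h by 0.35 (adjusted p = 0.0051, kept in 24 refits) and stood at 0.07 at 48 h. BYSL differed by -0.14 and 0.16.

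Of 11 factors of 60S assembly 2 rose at 48 h, where 13.3% of features were called higher, and 0 were called at the other times. NOP2 (chr12:6556863-6568691 in GRCh38.p12), a methyltransferase of 28S RNA, was at 135, 142 and 127 CPM in control and 212, 219 and 211 CPM in DMF at 48 h. NOP2 rose by 0.67 ± 0.17, adjusted p = 0.0072, with adjusted p = 0.07 without control replicate 3 of 48 h. RRS1, which brings the 5S ribonucleoprotein into the pre-60S particle, was at 22.4, 25.2 and 20.6 CPM and 26.7, 28.4 and 28.5 CPM. The groups did not overlap for either gene, and RRS1 rose by 0.30 ± 0.09, adjusted p = 0.02, kept in 20 of 24 refits. The PeBoW complex, formed by PES1, BOP1 and WDR12, differed at 48 h by 0.10, 0.03 and -0.08. The remaining 6 ranged from -0.21 for NOC3L to 0.32 for NOP16 at 48 h, with RRP1 at 0.24, RRP1B at 0.14, NOC2L at 0.27 and MRTO4 at 0.00. At 24 h NOC3L and RRP1B were the lowest, at -0.35 and -0.46, with RRP1 at 0.03, WDR12 at -0.14 and NOC2L the highest at 0.09.

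Of 7 subunits and factors of RNA polymerase I, 1 fell at 24 h and 2 fell at 48 h, where 6.61% and 12.5% of features were called lower, and 0 rose. POLR1E (chr9:37485935-37503697 in GRCh38.p12), a subunit that joins in initiation and elongation, was at 103, 116 and 104 CPM in control and 69, 68.9 and 67.9 CPM in DMF at 48 h. TAF1D, a subunit of the promoter selectivity factor SL1, was at 82.8, 89.4 and 75.5 CPM and 51.7, 50 and 51.9 CPM. In both genes the DMF libraries were all below the controls. POLR1E fell by 0.65 (adjusted p = 0.0032, kept in 24 of 24 refits), and TAF1D by 0.69 (adjusted p = 0.011, and 0.065 without control replicate 2 of 48 h). UBTF was at 222, 228 and 227 CPM in control and 180.2, 171 and 173 CPM in DMF at 24 h, and it fell by 0.37 (adjusted p = 0.007, kept in 20 refits). At 24 h the core subunits POLR1A and POLR1B stood at -0.47 and -0.46 without a call (95% intervals -0.90 to -0.03 and -1.02 to 0.10), and at 48 h at 0.27 and -0.03. POLR1C and the initiation factor RRN3 differed by 0.15 and 0.20 at 48 h, and POLR1C by 0.06 at 24 h. The 45S entry, the product of this polymerase, was higher in DMF at both times.

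**Figure D4:**
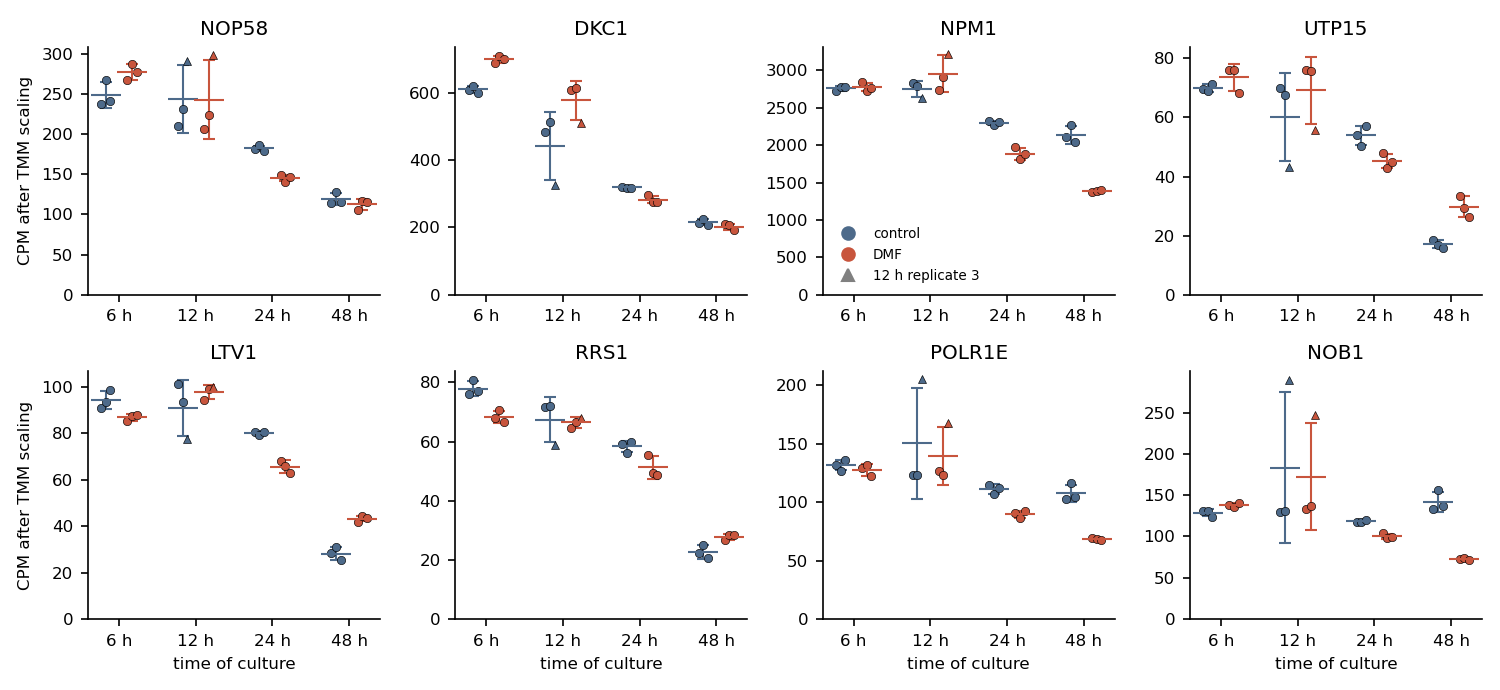
Level in CPM (vertical axis) of 8 genes by time in hours (horizontal axis) in control and DMF. Points are libraries, triangles the 12 h replicate 3 libraries, and bars mean ± SD of 3. UTP15, LTV1 and RRS1 are higher in DMF at 48 h and NPM1, POLR1E and NOB1 lower, with no overlap of libraries.

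The dependence of the DMF effect on time was tested directly. In the comparison of 48 h with 6 h, 3 genes moved up and 2 down, where 6.48% and 5.89% of features were called. LTV1 gained 0.74 ± 0.13, adjusted p = 0.00063, UTP15 0.71 ± 0.21, adjusted p = 0.034, and RRS1 0.49 ± 0.13, adjusted p = 0.015. NPM1 lost 0.64 (adjusted p = 0.00063) and NOB1 1.06 (adjusted p = 0.0498). NOB1 lost its call without any 1 of 19 libraries, and 6 genes were called in each direction without control replicate 3 of 12 h. Over the refits without 1 library, 1290 to 3129 of all features were called in this comparison. The joint test of whether the DMF effect changed over the 4 times called 6 genes, LTV1, NPM1, UTP15, RRS1, NCL and TSR1, where 15% of features were called. This count was 18 without control replicate 3 of 12 h, 11 without DMF replicate 3 of 12 h, and 3 without control replicate 1 or DMF replicate 2 of 48 h. The number of all features called jointly also moved over the refits without 1 library, from 1593 to 4089. DKC1, NOP58 and POLR1E, with the smallest joint p of their roles, had adjusted p of 0.075, 0.25 and 0.17. In 22 libraries the joint test called 39 of 42 genes and 69.2% of all features, and the 48 h against 6 h test 12 up and 14 down, against 26.7% and 24.2%.

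Between times in control cultures, without DMF, more of the genes differed. Culture time cannot be told apart here from other differences between the harvests. In control cells 35 of 42 genes were lower at 48 h than at 6 h and 0 were higher, where 20.4% of features were called lower and 21.6% higher. The median was -1.1 on the log2 scale, against 0.01 over all features, and the control libraries of 48 h lay wholly below those of 6 h for 37 genes and wholly above for 1, against 37.1% and 38% of features. By role, 8 of 8 processome components, 4 of 4 scaffolds, 10 of 11 factors of 60S assembly, 4 of 5 of late 40S assembly, 5 of 7 of RNA polymerase I, 2 of 3 of box C/D and 2 of 4 of box H/ACA fell. DESeq2 also called 35 lower and 0 higher, and at an unadjusted p under 0.05 edgeR had 0 higher. In 22 libraries 37 fell and 2 rose, FBL and NOB1, where 36.8% and 38.2% of features were called. Leaving out 1 library at a time gave 32 to 36 lower, with 4763 to 7501 of all features called in either direction.

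UTP20 fell most, from 215, 206 and 221 CPM at 6 h to 42.9, 34.8 and 36.6 CPM at 48 h, by 2.49 on the log2 scale (adjusted p = 0.00018). UTP15 fell by 2.03, RRS1 by 1.78, LTV1 by 1.74, NOP2 by 1.67 and RRP12 by 1.66. Their DMF differences at 48 h, from the same 48 h control libraries, were 0.65, 0.79, 0.30, 0.62, 0.67 and 0.59 in that order. DKC1 fell by 1.5, UBTF by 1.26, NCL by 1.22 and NOP58 by 1.06, while NPM1 fell by 0.37. The 7 not called were BOP1 at -0.36, POLR1E at -0.29, NOP10 at 0.00, TAF1D at 0.07, NHP2 at 0.09, FBL at 0.13 and NOB1 at 0.14. Their DMF differences at 48 h, again from those control libraries, were 0.03, -0.65, 0.33, -0.69, 0.13, -0.72 and -0.96. No relation between the 2 comparisons was tested, because the shared libraries move both.

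At 24 h the fall in control was smaller, with 9 of 42 genes lower and 0 higher, where 7.49% and 9.28% of features were called, and a median of -0.29. DKC1 fell by 0.94, UBTF by 0.77, NOP58 by 0.45, RRS1 by 0.42, NCL by 0.37, NOP14 by 0.30, TSR1 by 0.28, NPM1 by 0.26 and UTP4 by 0.24. DESeq2 called 13 lower and 0 higher, and edgeR had 0 higher at an unadjusted p under 0.05. The count of 9 was 5 without control replicate 2 of 6 h and 19 without control replicate 3 of 12 h, while all features called ranged from 1487 to 3757 over such refits. The 22 libraries gave 35 lower and 2 higher, where 27.7% and 28.8% of features were called. The control libraries of 24 h lay wholly below those of 6 h for 35 genes and wholly above for 3, against 33% and 33.6% of features. The 45S entry fell by 2.18 at 24 h (adjusted p = 0.00042) and 2.19 at 48 h (adjusted p = 9.5e-05) in control.

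DMF cultures fell over the same interval, in a comparison added after the data were seen. From 6 to 48 h 36 of 42 genes were lower and 0 higher, where 18.4% and 21.2% of features were called, with a median of -1.02. DESeq2 called 35 lower and 0 higher, and edgeR had 0 higher at an unadjusted p under 0.05. DKC1 fell most, by 1.79, followed by UTP20 at -1.75, NOP16 at -1.55 and POLR1C at -1.54. NOB1, POLR1E and TAF1D, not called in control, fell here by 0.92, 0.89 and 0.52, and the difference between DMF and control in this change was called for NOB1 but not for POLR1E or TAF1D (adjusted p = 0.0498, 0.073 and 0.19). The 48 h libraries lay wholly below those of 6 h for 39 genes and wholly above for 1, against 37.5% and 35.8% of features. In 22 libraries 39 fell and 1 rose, where 35.7% and 37.4% of features were called. The 45S entry fell by 1.26 (adjusted p = 0.0091). The summed level of the 42 genes went from 14006.0, 14393.0 and 14057.0 CPM at 6 h to 7524.0, 8139.0 and 7236.0 CPM at 48 h in control, and from 14899.6, 14983.0 and 14695.0 CPM to 7252.0, 7173.0 and 6957.0 CPM in DMF. The sums were lower at 48 h in every library of both treatments. At 24 h the sum was 11306.0, 11154.0 and 11412.0 CPM in control and 9974.0, 9549.0 and 9664.0 CPM in DMF, with the DMF libraries lower.

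**Figure D5:**
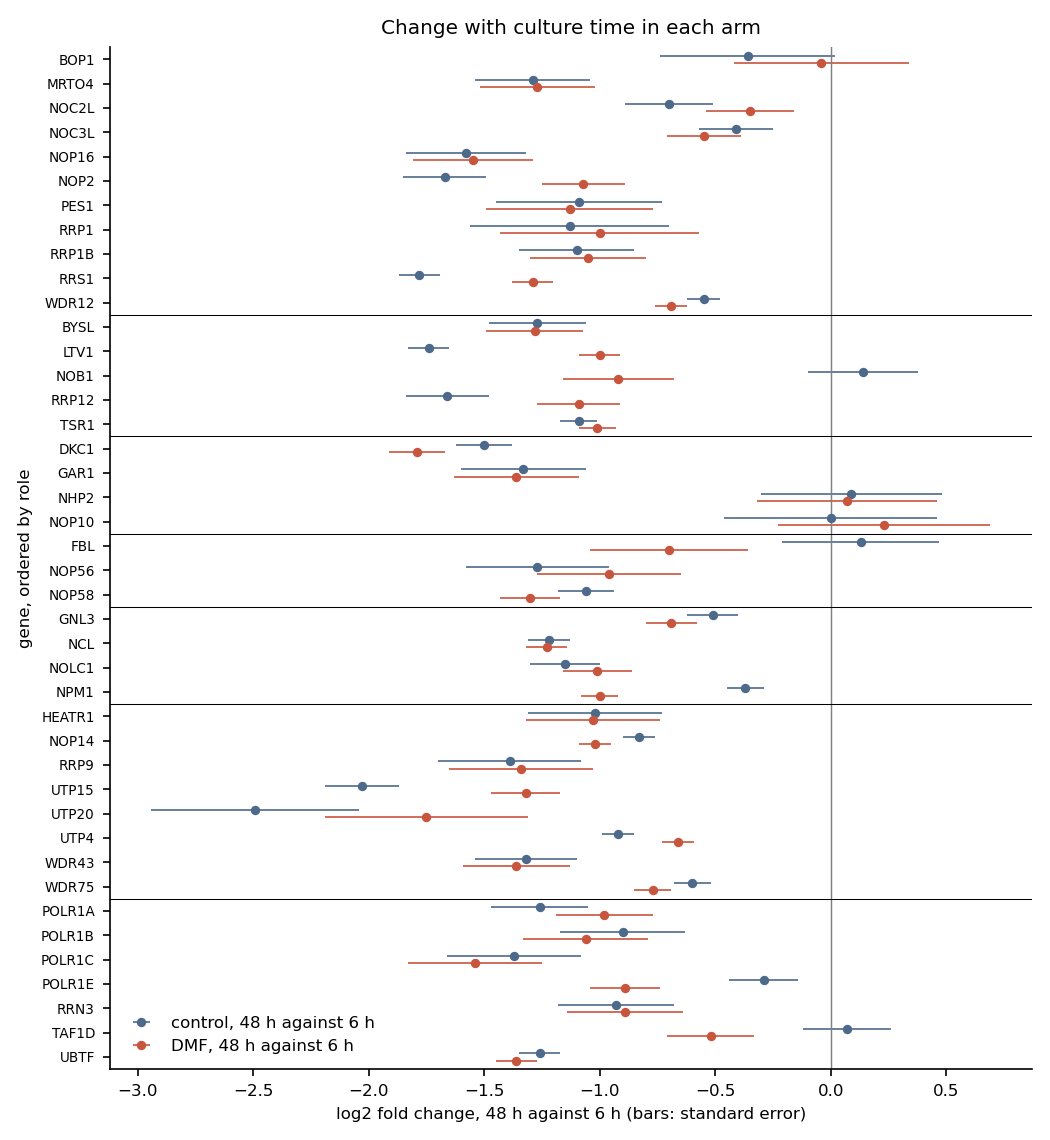
Log2 difference between 48 h and 6 h for each of the 42 genes (horizontal axis) in control and DMF cultures, by role. Most genes lie near -1 in both, with medians of -1.1 in control and -1.02 in DMF, and UTP20 is lowest in control at -2.49.

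The wider pathway was read from 115 other genes listed by function, all of which passed the filter. With DMF 8 rose and 1 fell at 6 h, 8 rose and 7 fell at 12 h, 1 rose and 10 fell at 24 h, and 17 rose and 12 fell at 48 h. These counts are from 24 libraries, against the shares of features given above for that fit. At 6 h the pre-40S factor PNO1 rose by 0.44 ± 0.10, adjusted p = 0.006, the processome component RCL1 by 0.30, and the 60S factors DDX10 and RSL24D1 by 0.30 and 0.43. The exosome nuclease EXOSC10 fell by 0.31. At 12 h the kinase RIOK2 rose by 0.42, MPHOSPH10 by 0.38 and PWP2 by 0.36, and TBL3 fell by 1.25. At 24 h the kinase RIOK1 fell by 0.54, MPHOSPH10 by 0.35, the acetyltransferase NAT10 by 0.30 and DDX10 by 0.30.

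At 48 h 7 of 30 other processome components rose and 1 fell, where 13.3% and 12.5% of features were called. Among them were NOL6 at 0.68, the helicase DHX37 at 0.50 and PWP2 at 0.43. Of 8 other late 40S factors PNO1 rose by 0.79 and NOP9 by 0.70, and RIOK1 fell by 0.34. Of 41 other 60S factors 4 rose and 6 fell, among them RRP15 at 0.61, GTPBP4 at 0.49 and RSL24D1 at -0.73. Of 14 other subunits and factors of RNA polymerase I, POLR2K rose by 0.72 and POLR1D fell by 0.82. In 24 libraries 0 of 12 exosome genes were called by edgeR, with 0 at an unadjusted p under 0.05. Yet the DMF libraries lay wholly below the controls for EXOSC5, EXOSC8, EXOSC9, DIS3 and MTREX and wholly above for EXOSC1. Over all features 30.2% lay wholly below and 30.6% wholly above. In control, 70 of 115 fell and 6 rose at 48 h against 6 h, where 20.4% and 21.6% of features were called. The 70 included 23 of 30 processome and 31 of 41 60S genes but 3 of 14 of RNA polymerase I. The median of the 115 was -0.59. In DMF cultures 69 fell and 2 rose, where 18.4% and 21.2% of features were called.

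Of 10 regulators of ribosomal DNA transcription 3 rose and 3 fell with DMF at 48 h, where 13.3% and 12.5% of features were called. MYC was at 282, 266 and 272 CPM in control and 173, 159 and 164 CPM in DMF at 24 h, and at 322, 318 and 305 CPM and 167, 146 and 153 CPM at 48 h. The DMF libraries were lower at both times. MYC differed with DMF by 0.03, -0.22, -0.73 and -1.02 at 6, 12, 24 and 48 h (adjusted p = 0.93, 0.04, 1.1e-06 and 5.8e-09). In control it rose from 6 to 48 h by 0.31 (adjusted p = 0.0018), over the interval in which 35 of the 42 genes fell. MXD1, which pairs with MAX and represses E-box genes, was higher with DMF by 1.28, 1.23 and 0.89 at 6, 12 and 24 h (adjusted p = 0.00089, 0.00082 and 0.01) and stood at 0.36 at 48 h. RPTOR, the scaffold of mTORC1, rose by 0.69 at 48 h.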

How the data were processed

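RNA of 24 HBL-1 libraries was read from RSEM's expected counts, which the authors deposited per gene without normalization, and from TPM, which the authors deposited scaled by effective length. HISAT2, HISAT and RSEM on GRCh38.p12 are named in the submitters' processing notes, and strand was not given in the sources used here. Counts were rounded, 20 ribosomal RNA genes were summed into 45S, 28S, 18S and 5.8S entries (the last held almost no counts and was filtered out), filtered with filterByExpr by group and scaled by TMM. A quasi-likelihood fit in edgeR 4.0.16 (R 4.3.3) had 1 mean for each of 8 groups, and F-tests were adjusted by Benjamini-Hochberg over 13410 features (13596 in 22 libraries). DESeq2 1.42.0 served as an alternative. Scripts were tested on simulated data. Depth was 2870751 to 40906596 counts. Deviations from the group mean in same-numbered 12 h libraries had correlations of 0.761, 0.755 and 0.896 for replicates 1, 2 and 3. Those of 6, 24 and 48 h had -0.06 to 0.036. Replicate 3 stood apart in both 12 h groups, and deviations from a group mean cancel within the group. The 12 h values of the other replicates can therefore follow from replicate 3 alone and do not show that these were paired.

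The members and gene lists were chosen with earlier results of these data known. Genes named with values are, at each time, the 2 members of each role with the smallest p, the 6 highest and 6 lowest, and up to 3 genes of each other pathway list with the smallest p. Other members named, and the control and DMF time values, were chosen after their values were seen. Motifs were searched on both strands in RefSeq promoters, and gene coordinates are those of GENCODE for GRCh38.p12.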

Additional observations from a re-analysis of the deposited data

Results flagged for a closer look

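The effect of DMF differed between times for 7 of the 42 genes by a test of the difference itself, 6 jointly, where 15% of features were called, and 3 upward and 2 downward between 48 h and 6 h, where 6.48% and 5.89% were, so these counts are near the background. Between 48 h and 6 h LTV1 (adjusted p = 0.00063), UTP15 (0.034) and RRS1 (0.015) had higher DMF effects at 48 h, and NPM1 (0.00063) and NOB1 (0.0498) lower ones. In the joint test over the 4 times LTV1 (0.00035), NPM1 (0.00043), UTP15 (0.012), RRS1 (0.029), NCL (0.032) and TSR1 (0.041) were called by edgeR. NCL and TSR1 had their highest DMF effects at 12 h or 48 h and their lowest at 24 h (-0.23 and -0.35). The call of NOB1 was lost in 19 of 24 refits without 1 library and that of NCL in 16.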

How the results depend on the processing

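Directions and calls depended most on the 12 h replicate 3 libraries. Without both, the 22 libraries called 6417, 6513, 7808 and 8773 features at 6, 12, 24 and 48 h, 6930 for 48 h minus 6 h, 9413 jointly, and 7685, 10200 and 9944 for control at 24 and 48 h and DMF at 48 h against 6 h. Members called higher and lower were then 13 and 2, 11 and 2, 2 and 29, 21 and 12, 12 and 14 for 48 h minus 6 h, 39 jointly, 2 and 35 for control at 24 h, 2 higher for control at 48 h, and 1 higher for DMF. Fits of only the groups compared gave 19 and 8 members (7269 features) at 6 h, 0 and 0 at 12 h, 3 and 29 (7815) at 24 h, 17 and 10 (7733) at 48 h, 11 and 10 (6661) for 48 h minus 6 h, 3 and 35 (8414) for control at 24 h, 1 higher for control at 48 h (9527) and for DMF (10074), and a 12 h 45S value of 1.4 that was no longer called. A fit of only the 12 h libraries without replicate 3, added after seeing the data, gave 13 and 4 members (6598). Without the count filter 0 members were higher at 12 h and 3 were called jointly. DESeq2 called 3 higher at 12 h, 9 lower at 24 h and 10 jointly, and its size factors in edgeR 1 lower for 48 h minus 6 h. The replicate block gave 2 members higher at 12 h and changed no other member count by over 1.5 times.

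At 12 h the direction reversed in 22 libraries or 12 h libraries alone for FBL (0.07, 0.06), LTV1 (-0.01, -0.02), NHP2 (0.12, 0.11), NOP10 (0.2, 0.19), NOP56 (0.08, 0.06) and 18S (0.15, 0.14), for MRTO4 in 22 (0.01), and for GAR1 in both (0.04, 0.03). Leaving out 1 library gave ranges that cross 0 at 12 h for BOP1 (-1.17 to 0.30), FBL (-0.69 to 0.57), GAR1 (-0.50 to 0.41), LTV1 (-0.01 to 0.17), MRTO4 (-0.48 to 0.32), NHP2 (-0.82 to 0.71), NOP10 (-0.99 to 0.90), NOP56 (-0.60 to 0.49), POLR1C (-0.08 to 0.90), POLR2E (-1.01 to 0.52), RRN3 (-0.09 to 0.48), RRP12 (-0.34 to 0.21), UTP15 (0.00 to 0.33), 18S (-0.90 to 0.55), 28S (-0.61 to 1.40), at 24 h for RRP1 (-0.03 to 0.04), 18S (-0.15 to 0.10), at 48 h for BOP1 (-0.04 to 0.12), HEATR1 (-0.12 to 0.02), MRTO4 (-0.10 to 0.07), for 48 h minus 6 h for 18S (-0.11 to 0.21), for control at 48 h against 6 h for NOP10 (-0.10 to 0.08), and for the summed share at 12 h (-0.114 to 0.79 points). The 45S ranges were 1.52 to 1.57 at 6 h and 0.99 to 2.47 at 12 h. Ranges of members called were 1 to 9 higher and 0 to 1 lower at 12 h, 1 to 15 lower at 24 h, 2 to 7 higher and 3 to 7 lower at 48 h, 2 to 6 higher and 1 to 6 lower for 48 h minus 6 h, 5 to 19 lower for control at 24 h, and 3 to 18 jointly. Ranges of features called were 1001 to 2641, 1712 to 4342, 1282 to 3577 and 2672 to 5294 at the 4 times, 1290 to 3129 for 48 h minus 6 h, 1593 to 4089 jointly, and 1487 to 3757 for control at 24 h. Beyond the construction of each setting, the cause was not tested. Depth limits DMF replicate 1 at 48 h.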
